A study of Arabidopsis thaliana with 12 samples.

Results

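The 8 genes of the Pep danger-signalling module of Arabidopsis thaliana described here were the peptide precursors PROPEP1 (AT5G64900), PROPEP2 (AT5G64890) and PROPEP3 (AT5G64905), the protease MC4 (AT1G79340), the receptors PEPR1 (AT1G73080) and PEPR2 (AT1G17750), the receptor-associated kinase BIK1 (AT2G39660) and the response marker FRK1 (AT2G19190). They were taken by gene identifier from the 34262 genes in each count table, and each identifier was found. RNA had been sequenced from leaf 13 of 5-week-old rosettes, an undamaged leaf, taken 1 h after the apical lamina of leaf 8 was crushed with forceps or taken from plants left unwounded. Plants were either the Col-0 wild type (WT) or isi1-2, the insertion line SALK_014032 in the Col-0 background, which is a single mutant line of the gene ISI1 (AT4G27750). Each of the 4 groups, unwounded WT, wounded WT, unwounded isi1-2 and wounded isi1-2, had 3 biological replicates, and each replicate pooled 2 plants.

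Peps are short peptides that lie at the C-terminal end of PROPEP proteins and are set free when a cell is damaged. Metacaspases, calcium-dependent cysteine proteases, cut the precursors, and MC4 is the one known for cutting PROPEP1 in wounded tissue. The released peptide binds PEPR1 or PEPR2, leucine-rich repeat receptor kinases at the plasma membrane, which pair with the co-receptor BAK1 and phosphorylate the cytoplasmic kinase BIK1. Calcium influx, an oxidative burst and defence transcripts such as FRK1 follow, and PROPEP genes themselves are known as targets of this signalling.

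The libraries held 23307790 to 30747778 gene counts each. At that depth 3 counts, taken here as the limit of detection, correspond to 0.0976 to 0.129 counts-per-million (CPM) of the library total, which covers counting error only. Levels are given in CPM after scaling between libraries by the trimmed mean of M-values (TMM). ISI1 had 253 to 337 counts in the WT libraries and 1 to 4 in the isi1-2 libraries. Replicate 1 of wounded WT stood farthest from its group, with a chi-square per degree of freedom of 24.2 and 15.3 against its fellow replicates, where other pairs within groups gave 4.29 to 11.1. Of 4 markers each, the summed level of the leaf mesophyll list was 36430 to 40906 CPM in unwounded WT and 30021 to 31468 CPM in wounded WT. In isi1-2 it was 38744 to 40848 CPM unwounded and 28856 to 33595 CPM wounded. The epidermis and trichome list held 263 to 273 CPM in unwounded WT, 161 to 173 CPM in wounded WT, 273 to 289 CPM in unwounded isi1-2 and 152 to 159 CPM in wounded isi1-2. All 4 mesophyll and all 4 epidermis markers were called lower after wounding in WT, and 3 and 2 of them in isi1-2. The phloem list held 475 to 523 CPM and 534 to 606 CPM in unwounded and wounded WT, and 521 to 584 CPM and 579 to 622 CPM in isi1-2, with 2 of its 4 markers called higher in both genotypes and 1 called lower in WT. None of the 4 xylem markers was called in either genotype, and of the 4 guard cell markers MYB60 was called, lower in both. Root markers stayed between 0 and 0.188 CPM in sum, with IRT1 and RHD6 at 0 in every library. The part of these shifts in the results below was not tested, and in whole leaves fewer cells of a type and less RNA per cell cannot be told apart.

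After wounding, the transcripts of both receptors rose over 5-fold, and those of MC4 and BIK1 rose by less than 2-fold. PROPEP1 was not called higher in either genotype, and PROPEP2 and PROPEP3 were at or near 0 counts. In WT 4 of the 8 genes were called, all higher: PEPR1, PEPR2, MC4 and BIK1. A call is a Benjamini-Hochberg adjusted p under 0.05 in edgeR's quasi-likelihood test, adjusted over the 18698 genes that passed the low-count filter. By that rule 46.9% of all genes tested were called in WT, 23.9% higher and 23% lower, so the number of calls among the 8 genes says little about them and the sizes below carry the description. In isi1-2 the same 4 genes were called higher and PROPEP1 was called lower, with 50.9% of all genes called, 25.1% higher and 25.7% lower. PROPEP2, PROPEP3 and FRK1 did not pass the filter, while the other 5 genes had at least 10 counts in every library.

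**Figure D1:**
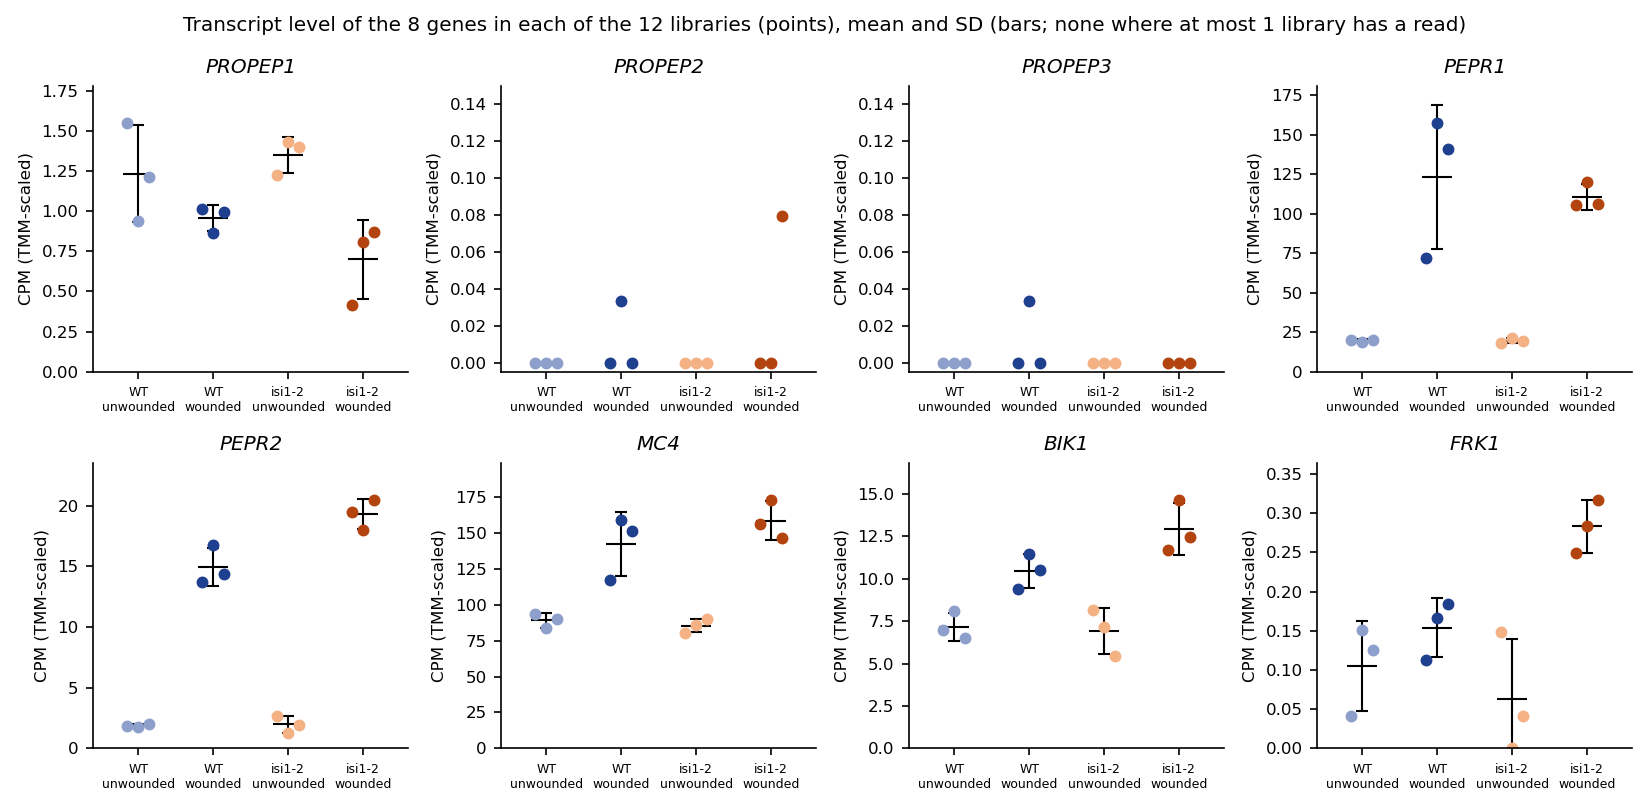
Level of each of the 8 genes in CPM (TMM-scaled, linear axis from 0) in the 12 libraries. Points are libraries, ordered by replicate number, and bars are the mean and SD of 3 replicates (no bar where at most 1 library had a read). PEPR1, PEPR2, MC4 and BIK1 lie higher in every wounded library than in any unwounded library of the same genotype, PROPEP1 lies lower in wounded isi1-2, and PROPEP2 and PROPEP3 are at or near 0.

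The 3 precursor genes stand side by side on chromosome 5, all on the plus strand of the RefSeq assembly TAIR10.1: PROPEP2 at chr5:25934568-25935612, PROPEP1 at chr5:25937078-25938176 and PROPEP3 at chr5:25939562-25940080. Gaps of 1465 and 1385 bases separate them, with no other annotated gene between. The stretches that encode the peptide are shown because they hold the active part and show how the 3 members differ. They are the last 23 codons of PROPEP1 (chr5:25937868-25937936) and the best-matching 23 codons of PROPEP2 (chr5:25935235-25935303) and PROPEP3 (chr5:25939853-25939921), in RefSeq's sequence, with capitals on the codons whose residue is the same in all 3.
PROPEP1: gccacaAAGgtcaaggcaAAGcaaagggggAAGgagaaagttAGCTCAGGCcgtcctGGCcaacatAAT
PROPEP2: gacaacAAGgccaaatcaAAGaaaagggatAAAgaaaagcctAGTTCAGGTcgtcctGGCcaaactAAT
PROPEP3: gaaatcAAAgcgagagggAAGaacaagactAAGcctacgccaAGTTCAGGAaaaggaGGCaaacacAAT
The residue is shared by all 3 at 8 of 23 positions. PROPEP1 and PROPEP2 share 15 of 23 residues (65.2%), PROPEP2 and PROPEP3 share 10 (43.5%), and PROPEP1 and PROPEP3 share 9 (39.1%). In PROPEP1 and PROPEP3 the stretch ends the protein, of 92 and 96 residues, while RefSeq's PROPEP2 runs on for 13 residues to a length of 109. No window of 100 bases in the exons of these 3 genes recurs elsewhere in the genome.

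PROPEP1, the precursor of Pep1, was the only one of the 3 with reads in every library. It had 38, 25 and 29 counts in unwounded WT (1.55, 0.940 and 1.21 CPM) and 27, 26 and 27 counts in wounded WT (1.01, 0.863 and 0.994 CPM). In isi1-2 it had 33, 42 and 34 counts unwounded (1.22, 1.43 and 1.40 CPM) and 10, 20 and 22 counts wounded (0.415, 0.810 and 0.872 CPM). The 2 WT groups overlap, while each wounded isi1-2 library lies below each unwounded one. The log2 fold change was -0.36 in WT (SE 0.27; edgeR adjusted p = 0.295; 95% interval -0.94 to 0.22) and -0.94 in isi1-2 (SE 0.29; edgeR adjusted p = 0.0116), 1.92-fold lower in the mutant after wounding. That call rests on replicate 1 of wounded isi1-2, the library with 10 counts: without it the log2 fold change was -0.68 (edgeR adjusted p = 0.0595). It was also lost when tested against a change of 1.5-fold (edgeR adjusted p = 0.194).

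PROPEP2 and PROPEP3, the precursors of Pep2 and Pep3, were at or under the limit of detection in all 12 libraries. PROPEP2 had 1 count in replicate 2 of wounded WT, 2 counts in replicate 3 of wounded isi1-2 and none elsewhere. PROPEP3 had 1 count in replicate 2 of wounded WT and none elsewhere. At this depth a level above 0.129 CPM was not seen in any group, and no fold between groups is given.

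The 250 bases before each precursor's annotated start are shown because the 3 neighbours differ in level while the same motif recurs in them. The motif searched was the W-box core TTGAC on both strands (GTCAA on the strand shown), the binding core of WRKY transcription factors, together with the G-box CACGTG. Capitals mark the matches in RefSeq's plus-strand sequence of PROPEP1 (chr5:25936828-25937077), PROPEP2 (chr5:25934318-25934567) and PROPEP3 (chr5:25939312-25939561).
PROPEP1: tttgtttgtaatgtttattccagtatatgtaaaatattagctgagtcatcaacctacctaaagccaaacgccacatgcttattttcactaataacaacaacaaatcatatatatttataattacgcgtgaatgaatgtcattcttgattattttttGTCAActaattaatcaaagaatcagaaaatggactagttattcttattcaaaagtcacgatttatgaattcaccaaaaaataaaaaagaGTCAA
PROPEP2: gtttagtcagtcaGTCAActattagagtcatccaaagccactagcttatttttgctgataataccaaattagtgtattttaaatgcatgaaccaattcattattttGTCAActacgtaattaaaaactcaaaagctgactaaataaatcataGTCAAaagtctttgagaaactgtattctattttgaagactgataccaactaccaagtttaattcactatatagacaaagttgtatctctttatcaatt
PROPEP3: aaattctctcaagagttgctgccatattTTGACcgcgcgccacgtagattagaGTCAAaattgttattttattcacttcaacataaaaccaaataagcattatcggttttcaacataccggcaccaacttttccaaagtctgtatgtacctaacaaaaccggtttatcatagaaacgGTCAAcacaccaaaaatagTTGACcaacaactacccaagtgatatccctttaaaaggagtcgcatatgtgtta
The window of PROPEP1 holds 2 W-box cores, that of PROPEP2 holds 3 and that of PROPEP3 holds 4, with no match to the G-box and no overlap between matches. Of 27443 protein-coding genes with a window of this length, 44.9% hold at least 1 W-box core, 14.1% hold at least 2 and 6.49% hold a G-box. The shares with at least 3 or 4 cores were not computed. A match describes these letters and is no evidence of binding.

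Among the other members of the precursor family, PROPEP4 (AT5G09980) had more reads after wounding in both genotypes. It had 8, 3 and 5 counts in unwounded WT, 45, 20 and 22 in wounded WT, 1, 3 and 5 in unwounded isi1-2 and 15, 32 and 20 in wounded isi1-2. Every wounded library is above every unwounded one, and the gene passed the filter only through its wounded libraries. Its log2 fold changes of 2.27 in WT (SE 0.51) and 2.96 in isi1-2 (SE 0.59) are therefore given as a description. PROPEP5 and PROPEP6 were not called in either genotype, with log2 fold changes of 0.57 and -0.23 in WT and of 0.01 and 0.02 in isi1-2. PROPEP7 had 0 to 3 counts and was not tested.

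MC4, the protease that frees Pep1, lies at chr1:29842587-29844638 on the plus strand and was the most abundant of the 8 genes per length of transcript in each group. It stood at 93.7, 83.9 and 89.8 CPM in unwounded WT and at 117, 159 and 152 CPM in wounded WT. In isi1-2 the libraries held 80.5, 86.3 and 89.8 CPM unwounded and 156, 173 and 147 CPM wounded. The wounded and unwounded libraries do not overlap in either genotype, and the lowest wounded library is replicate 1 of wounded WT. MC4 was 1.60-fold higher after wounding in WT (log2 0.68, SE 0.10; edgeR adjusted p = 4.89e-05) and 1.85-fold higher in isi1-2 (log2 0.89, SE 0.10; edgeR adjusted p = 2.81e-06). Tested against a change of 1.5-fold in place of no change, the WT call was lost (edgeR adjusted p = 0.325). MC4 overlaps EMB1135 (AT1G79350) on the opposite strand, and whether counting used the strand is not given in the sources used here. EMB1135 itself had a log2 fold change of -0.11 in WT (edgeR adjusted p = 0.198) and -0.10 in isi1-2 (edgeR adjusted p = 0.242), neither of them called.

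MC4 is the last of 4 metacaspase genes in a row on that strand, after MC7, MC6 and MC5, and the 4 differed in level. MC7 (AT1G79310) had 1, 0 and 0 counts in unwounded WT and 144, 123 and 120 in wounded WT. In isi1-2 it had 5, 0 and 0 counts unwounded and 173, 169 and 148 wounded. It was at or near 0 before wounding and reached 4.64 ± 0.689 CPM (SD, n = 3) in wounded WT and 5.87 to 7.18 CPM in wounded isi1-2. It passed the low-count filter only through its wounded libraries, so its values are given as a description, with no fold or p. MC5 and MC6, which stand between them, had 0 counts in every library. Of the 8 metacaspases other than MC4, 5 were tested and 4 were called higher in each genotype, MC7, which could pass the filter only by being high after wounding, and MC2, MC1 and MC3, with log2 fold changes of 1.05, 0.60 and 0.85 for the last 3 in WT and of 0.73, 0.61 and 0.97 in isi1-2. MC9 had log2 fold changes of 0.14 and 0.19 and was not called, and MC8 had 0 to 3 counts.

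**Figure D2:**
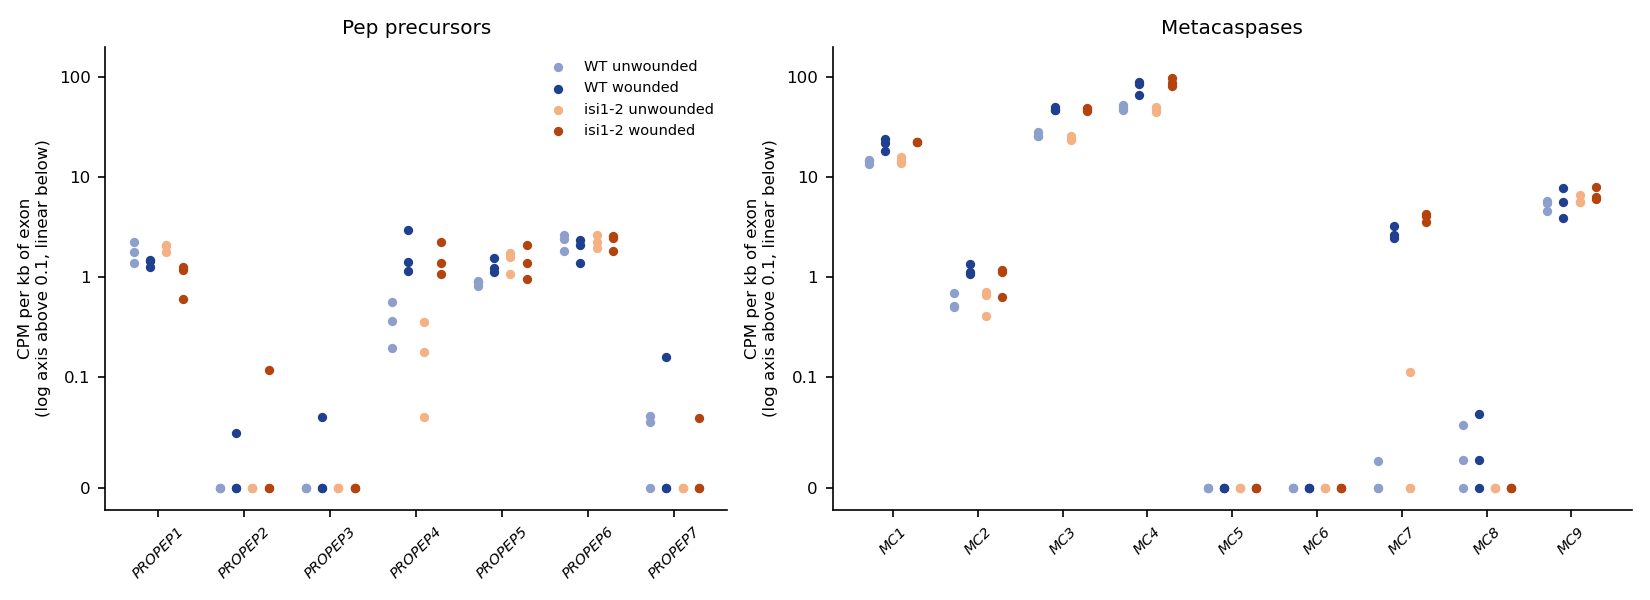
Level per length of transcript (CPM per kb of exon, log axis above 0.1 and linear below) of the 7 Pep precursors and the 9 metacaspases in each library, with colours for the 4 groups. PROPEP2, PROPEP3, PROPEP7, MC5, MC6 and MC8 sit at or near 0, PROPEP4 and MC7 move up in the wounded groups, and MC4 and MC3 have the highest levels.

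PEPR1, the receptor that binds Peps most broadly, lies at chr1:27484240-27488204 on the plus strand, and 0.606% of the 100-base windows of its exons recur elsewhere in the genome. Its level was 20.3, 18.8 and 20.04 CPM in unwounded WT and 71.8, 157 and 141 CPM in wounded WT. In isi1-2 it was 18.2, 21.3 and 19.8 CPM unwounded and 106, 120 and 106 CPM wounded. The wounded libraries are all far above the unwounded ones, and replicate 1 of wounded WT holds the least of them, below all 3 of wounded isi1-2. PEPR1 rose from 19.7 ± 0.781 to 123 ± 45.4 CPM in WT (SD, n = 3), 6.25-fold (log2 2.64, SE 0.26; edgeR adjusted p = 2.08e-05). In isi1-2 it rose from 19.8 ± 1.53 to 111 ± 8.28 CPM, 5.59-fold (log2 2.48, SE 0.25; edgeR adjusted p = 2.59e-05). In WT only 2.54% of the genes tested had a log2 fold change as high, and in isi1-2 3.15%.

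PEPR2, the second receptor, lies at chr1:6106323-6110120 on the plus strand and was the scarcer of the pair. It held 1.87, 1.77 and 2.01 CPM in unwounded WT and 13.7, 16.8 and 14.4 CPM in wounded WT. In isi1-2 it held 2.67, 1.295 and 1.93 CPM unwounded and 19.5, 17.98 and 20.5 CPM wounded. No wounded library overlaps an unwounded one, and the 3 wounded isi1-2 libraries lie above the 3 wounded WT libraries. PEPR2 rose 7.94-fold in WT (log2 2.99, SE 0.17; edgeR adjusted p = 7.45e-10) and 9.87-fold in isi1-2 (log2 3.30, SE 0.17; edgeR adjusted p = 1.15e-10), with 2.09% and 2.04% of genes tested as high. PEPR2 overlaps 3 genes on the opposite strand, of which CSTF77 (AT1G17760) had 462 to 816 counts and AT1G05323 and AT1G05327 had at most 1. CSTF77 itself changed by log2 0.32 in WT (edgeR adjusted p = 0.00424) and 0.59 in isi1-2 (edgeR adjusted p = 2.10e-05). PEPR2 had 46 to 48 counts in unwounded WT and 366 to 505 in wounded WT. Log2 changes of CSTF77 and PEPR2 thus stand for different numbers of reads. Any part of the overlap in the PEPR2 counts was not tested.

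Per length of transcript PEPR1 exceeded PEPR2 in every library. The ratio of PEPR1 to PEPR2 in CPM per kb of exon was 10.5, 10.3 and 9.68 in unwounded WT and 5.07, 9.11 and 9.51 in wounded WT. In isi1-2 it was 6.61, 15.9 and 9.94 unwounded and 5.25, 6.48 and 5.02 wounded. The wounded ratios lie below the unwounded ones in both genotypes without overlap, but by narrow margins. The closest values are 9.51 and 9.68 in WT and 6.48 and 6.61 in isi1-2. In WT the lowest wounded ratio, 5.07, was that of replicate 1, the library farthest from its group. The other wounded WT ratios, 9.11 and 9.51, lay close to the unwounded range, and the difference without replicate 1 was not computed. In unwounded isi1-2 the ratios spread from 6.61 to 15.9, where PEPR2 had 38 to 72 counts. The difference in mean log2 ratio was -0.42 in WT and -0.87 in isi1-2, each with p = 0.1 in a two-sided exact permutation test, the smallest p that 3 libraries against 3 allow. Between genotypes the ratios of single libraries overlapped in both treatments, with exact permutation p = 1 unwounded and p = 0.3 wounded.

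**Figure D3:**
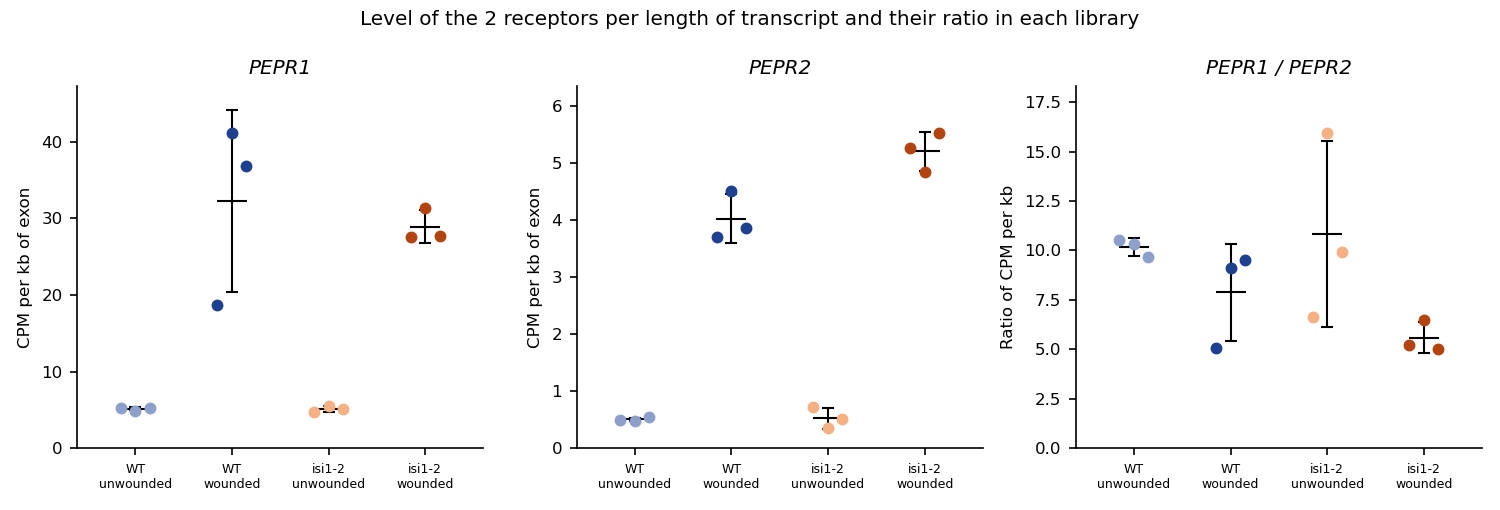
PEPR1 and PEPR2 in CPM per kb of exon and their ratio in each library (points), with the mean and SD of each group (linear axes from 0). Both receptors are higher in all wounded libraries. The ratio lies between 9.68 and 10.5 in unwounded WT and between 5.07 and 9.51 in wounded WT. In isi1-2 it lies between 6.61 and 15.9 unwounded and between 5.02 and 6.48 wounded.

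The windows of 250 bases before the receptor genes were searched in the same way and are shown because both genes rose, a choice made after their values were seen. Capitals mark W-box cores and, in PEPR1, a G-box near the 3′ end, in RefSeq's plus-strand sequence of PEPR1 (chr1:27483990-27484239) and PEPR2 (chr1:6106073-6106322).
PEPR1: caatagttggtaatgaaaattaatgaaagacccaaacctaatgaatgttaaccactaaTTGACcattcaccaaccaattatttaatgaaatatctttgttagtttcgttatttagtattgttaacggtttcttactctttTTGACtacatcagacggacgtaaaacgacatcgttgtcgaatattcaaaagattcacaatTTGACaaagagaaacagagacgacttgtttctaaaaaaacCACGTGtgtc
PEPR2: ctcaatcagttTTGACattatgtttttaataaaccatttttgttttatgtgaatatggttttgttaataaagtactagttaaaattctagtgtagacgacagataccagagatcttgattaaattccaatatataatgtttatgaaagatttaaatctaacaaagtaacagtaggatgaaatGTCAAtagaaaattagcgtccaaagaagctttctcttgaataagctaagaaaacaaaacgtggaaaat
PEPR1 has 3 W-box cores and 1 G-box, and PEPR2 has 2 W-box cores and no G-box. The windows of FRK1 and BIK1 hold 3 and 1 W-box cores, and neither motif is in that of MC4. Whether these motifs bear on the level of any of these genes was not tested.

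BIK1, the kinase that relays the receptors' signal, lies at chr2:16531527-16533986 on the plus strand and rose modestly. It stood at 6.96, 8.09 and 6.49 CPM in unwounded WT and at 9.42, 11.4 and 10.5 CPM in wounded WT. In isi1-2 it held 8.16, 7.16 and 5.47 CPM unwounded and 11.7, 14.7 and 12.5 CPM wounded. Wounded and unwounded libraries are separate in both genotypes, by a narrow margin in WT, where the highest unwounded and lowest wounded libraries are 8.09 and 9.42 CPM. The rise was 1.46-fold in WT (log2 0.54, SE 0.14; edgeR adjusted p = 0.00466) and 1.86-fold in isi1-2 (log2 0.89, SE 0.14; edgeR adjusted p = 5.54e-05). Against a change of 1.5-fold the WT call was lost (edgeR adjusted p = 1).

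FRK1, a receptor-like kinase gene used as a marker of the response to microbial patterns and Peps, lies at chr2:8326049-8329944 on the minus strand and was close to the limit of detection. It had 1, 4 and 3 counts in unwounded WT, 3, 5 and 5 in wounded WT, 4, 0 and 1 in unwounded isi1-2 and 6, 7 and 8 in wounded isi1-2. The WT groups overlap, and the wounded isi1-2 libraries lie above the others at 0.249 to 0.317 CPM. It was not tested with the filter. Without it the log2 fold change was 0.52 in WT (SE 0.75; edgeR adjusted p = 0.638) and 2.11 in isi1-2 (SE 0.75; edgeR adjusted p = 0.0287). FRK1 overlaps AT2G19180 on the opposite strand, which had 308 to 554 counts and was itself called higher, by log2 0.54 in WT (edgeR adjusted p = 7.00e-05) and 0.55 in isi1-2 (edgeR adjusted p = 4.08e-05). Since the use of strand in counting is not given, the few reads of FRK1 are uncertain.

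In order of level per length of transcript, unwounded WT ran from MC4 at 49.8 CPM per kb of exon through PEPR1 at 5.15, BIK1 at 3.61, PROPEP1 at 1.79 and PEPR2 at 0.507 to FRK1 at 0.0391, with PROPEP2 and PROPEP3 at 0. In wounded WT the order was MC4 at 79.7, PEPR1 at 32.2, BIK1 at 5.26, PEPR2 at 4.03 and PROPEP1 at 1.38. In wounded isi1-2 it was the same, MC4 at 88.7, PEPR1 at 28.9, BIK1 at 6.50, PEPR2 at 5.21 and PROPEP1 at 1.01. PEPR2 thus stood below PROPEP1 in the unwounded groups and above it in the wounded ones. Neighbours in these orders did not overlap between libraries except among FRK1, PROPEP2 and PROPEP3.

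The second question was whether the mutation changes these genes. None of the 5 tested genes was called between genotypes in unwounded plants, in wounded plants or in the interaction of genotype and wounding (edgeR). Of all genes tested, 0.128%, 2.39% and 0.0321% were called in these comparisons. PROPEP2, PROPEP3 and FRK1 did not pass the filter and could not be called. DESeq2 called 0 of the 5 tested genes in each of these 3 comparisons as well. At an unadjusted p under 0.05 there were 0 in unwounded plants, 0 in the interaction and 2 in wounded plants, PEPR2 and BIK1, both higher in all 3 libraries of isi1-2 than in any of WT. By that looser rule 1707 of 18698 genes passed in unwounded plants, 1961 in the interaction and 3105 in wounded plants. Wounded PEPR2 was 14.95 ± 1.59 CPM in WT and 19.3 ± 1.27 CPM in isi1-2 (SD, n = 3), a log2 difference of 0.37 (95% interval 0.09 to 0.65; edgeR adjusted p = 0.167). Wounded BIK1 was 10.5 ± 1.01 CPM in WT and 12.9 ± 1.55 CPM in isi1-2, a log2 difference of 0.30 (95% interval 0.02 to 0.59; edgeR adjusted p = 0.27). MC4 differed by 0.15 (95% interval -0.06 to 0.36; edgeR adjusted p = 0.478) and PROPEP1 by -0.44 (95% interval -1.07 to 0.19; edgeR adjusted p = 0.504), with overlapping libraries.

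The value for PEPR1 between wounded genotypes turned on 1 library. With all libraries its log2 difference was -0.16 (95% interval -0.68 to 0.37; edgeR adjusted p = 0.799). Without replicate 1 of wounded WT, the library far from its group, PEPR1 was called lower in wounded isi1-2, by 1.34-fold (log2 -0.42, SE 0.08; edgeR adjusted p = 0.00256). In that fit 4.98% of 18858 genes were called and none of the other 4 tested members was. Without replicate 2 of wounded WT the difference was 0.06, of opposite sign.

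The interaction, the wounding response of isi1-2 minus that of WT on the log2 scale, was -0.58 for PROPEP1 (95% interval -1.42 to 0.26), -0.16 for PEPR1 (-0.95 to 0.63), 0.31 for PEPR2 (-0.22 to 0.85), 0.21 for MC4 (-0.09 to 0.51) and 0.35 for BIK1 (-0.07 to 0.77). Adjusted p ranged from 0.56 to 0.927 (edgeR). These intervals leave room for differences of either sign in each gene, so PROPEP1, called in isi1-2 and not in WT, was not shown to respond differently in the 2 genotypes. In unwounded plants the log2 differences lay between -0.06 for MC4 and 0.14 for PROPEP1.

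**Figure D4:**
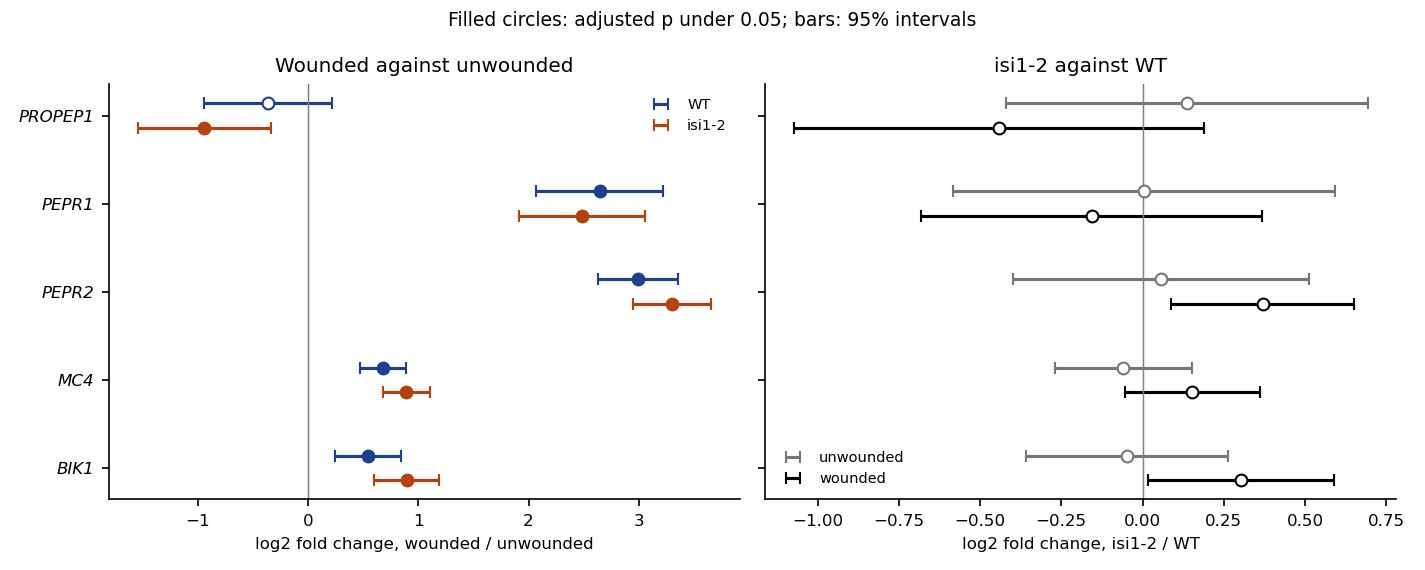
Log2 fold changes of the 5 tested genes with 95% intervals, for wounding in each genotype (left) and for isi1-2 against WT in unwounded and wounded plants (right). Filled circles have an edgeR adjusted p under 0.05. PEPR1 and PEPR2 lie between 2.48 and 3.30 for wounding, MC4 and BIK1 between 0.54 and 0.89, PROPEP1 lies below 0, and no circle on the right is filled.

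The surrounding pathway was described with 9 lists of 80 genes, of which 65 were tested. In WT 36 were called higher and 7 lower after wounding, and the log2 fold changes of the tested genes had a median of 0.57. In isi1-2 38 were called higher and 12 lower, with a median of 0.46. The tested genes include PROPEP4, MC7 and AT5G44585, which passed the filter only through their wounded libraries, so their part in these values is no support. Over all genes tested the medians were -0.0031 and -0.0038. The background rate of calls, beside which each list's counts stand, was 23.9% for increases and 23% for decreases in WT. In isi1-2 this rate was 25.1% for increases and 25.7% for decreases. Whether any list departs from the background rate was not tested. Without replicate 1 of wounded WT the counts in WT were 41 higher and 9 lower, in a fit that called 8848 of 18858 genes.

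Of the 8 SERK co-receptors and BIR kinases, which assist or restrain PEPR and related receptors, 5 were called higher and 3 lower in WT, and 4 higher and 3 lower in isi1-2. SERK4 (log2 2.05 in WT and 1.92 in isi1-2) and BIR1 (1.82 and 1.40) rose most. AT1G27190 (-0.54 and -0.86) and SERK2 (-0.53 and -0.40) fell most in WT. BAK1, the co-receptor named above, rose by 0.64 and 0.62.

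Of 13 other pattern and peptide receptors 9 were called higher in each genotype, none lower in WT and 3 lower in isi1-2. RLK7, a receptor of PIP peptides, went from 36.8, 37.2 and 33.5 CPM to 326, 597 and 499 CPM in WT (log2 3.73; edgeR adjusted p = 1.49e-07) and rose by log2 3.84 in isi1-2. DORN1, a receptor of extracellular ATP, another damage signal, rose by 2.25 and 2.49. RLK7 was, like PEPR1, lowest among wounded WT libraries in replicate 1.

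Of the 8 tested receptor-like cytoplasmic kinases, relatives or partners of BIK1, 2 were called higher and 1 lower in WT, and 3 higher and 1 lower in isi1-2. AT3G09830 (log2 1.86 and 1.37) and AT5G47070 (1.01 and 0.61) rose, and RIPK (-0.37 and -0.40) fell. The other 5 tested in WT and the other 4 in isi1-2 were not called. Without replicate 1 of wounded WT, 2 were called lower in isi1-2.

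Among 11 genes that act on the stability or activity of BIK1 and receptor complexes, 7 were called higher and 2 lower in WT, and 6 higher and 3 lower in isi1-2. The ubiquitin ligase gene PUB24 (log2 1.43 and 1.14) rose in both genotypes. CPK28, a calcium-dependent kinase that promotes BIK1 turnover, rose by 1.17 in WT and had 0.38 in isi1-2, which was not called. PUB25 (-1.75 and -1.61) and PUB26 (-0.98 and -0.63), ligases known for marking BIK1 for degradation, fell in both. The WT call of CPK28 sat on 16.6, 40.3 and 38.6 CPM in the wounded libraries, with replicate 1 near the unwounded range of 12.4 to 15.4 CPM.

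Of 6 channel and oxidase genes downstream, 3 were called higher and 1 lower in WT, and 5 higher and 1 lower in isi1-2. AT1G11960 (log2 2.52 and 2.19) and RBOHD (1.47 and 1.18), the oxidase of the defence burst, rose, and the channel gene CNGC4 (-0.70 and -0.89) fell.

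Of 12 other marker genes of pattern responses only 7 had enough reads to be tested, and the untested 5 peaked at 4 to 12 counts. In WT 3 were called higher and none lower, led by WRKY53 (log2 1.45 and 1.01 in isi1-2) and WRKY29 (0.71 and 0.70), both WRKY factors, and in isi1-2 3 were called higher and 1 lower. Without replicate 1 of wounded WT, 2 were called lower in each genotype. FRK1 thus shared its scarcity of reads with 5 of these 12 genes. Of 9 genes listed as other danger and stress peptide precursors, 4 were tested, with 2 called higher in WT and 3 in isi1-2. PSK4, a phytosulfokine precursor, rose by 2.38 in both. AT5G44585, which RefSeq leaves uncharacterized, had 1, 1 and 1 counts in unwounded WT and 13, 4 and 13 in wounded WT. It passed the filter only through its wounded libraries, so its call, 1 of those counted, is no support.

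Between genotypes none of the 65 tested pathway genes was called in unwounded plants or in the interaction by edgeR. In wounded plants 3 were called, where 2.39% of all genes tested were, and they are named here after their values were seen. CNGC2 was higher in wounded isi1-2 by log2 0.36 (edgeR adjusted p = 0.0283) and ATL2 by 0.55 (edgeR adjusted p = 0.0283), and PUB12 was lower by 0.66 (log2 -0.66; edgeR adjusted p = 0.0446). Without replicate 1 of wounded WT, 3 were called higher and 7 lower, in a fit that called 4.98% of 18858 genes. Whether these counts depart from that share was not tested.

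**Figure D5:**
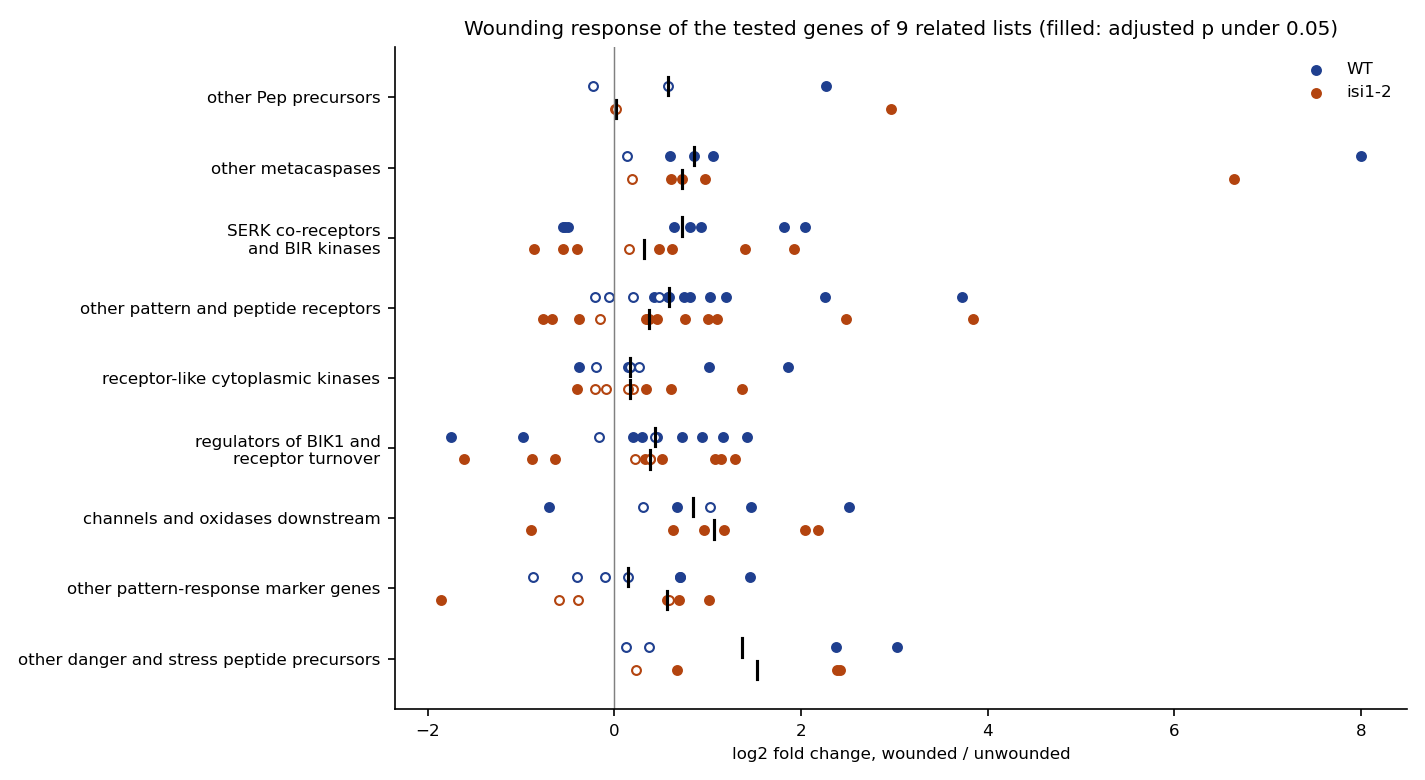
Log2 fold change after wounding of each tested gene of the 9 lists, in WT and isi1-2 (filled: edgeR adjusted p under 0.05), with the list's median as a black line. RLK7 and MC7 lie farthest right, MC7 at a fitted value that depends on the prior count because its unwounded WT libraries were at 0 or 1 count, and PUB25 lies far left in both genotypes.

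For each tested member, the 2 genes with the most similar profile of log2 CPM over the 12 libraries were named, leaving out genes whose log2 CPM averaged under 1. For PEPR1 they were TSD2 and PUB45 (Pearson r 0.996 each), for PEPR2 RLP53 and TPS04 (0.995 each), for MC4 AT5G11680 and AT4G21580 (0.995 and 0.993), for BIK1 GATL6 and UBC19 (0.969 and 0.961) and for PROPEP1 AT4G09432 and AT5G11000 (0.960 and 0.926). Many genes shared such profiles: 2078 genes reached r of 0.9 with PEPR1, 2152 with PEPR2, 1973 with MC4 and 569 with BIK1, against 7 with PROPEP1. They are descriptions over libraries that share treatments, with no test, and likeness within a treatment was not computed.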

How the data were processed

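The authors deposited 1 table of raw read counts per sample, with no normalization. The libraries were stranded poly-A libraries read as single-end Illumina reads, per the labels' protocols. The tools named for them are cutadapt 1.8, STAR 2.5.3a and HTSeq 0.9.1 with the genome build TAIR10, per the submitters' processing notes. The 5 HTSeq summary lines were left out; reads with several alignments were 4.19% to 4.46% of a library, outside genes 0.652% to 0.95% and ambiguous 0.096% to 0.117%. Groups and replicate numbers came from the sample titles. The labels give no sequencing batch.

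Counts of all 12 samples were fitted in edgeR 4.0.16 (R 4.3.3): filterByExpr with a minimum count of 10 and total of 15, TMM scaling, glmQLFit (robust) with 1 coefficient per group, and glmQLFTest, adjusted by Benjamini-Hochberg over 18698 genes. The code was run on simulated counts in which far fewer genes changed than here, which does not test the results above. SE is the absolute log2 fold change over the square root of F. DESeq2 1.42.0, another scaling, no filter, a replicate block, a 1.5-fold threshold, the compared groups alone and leaving out each sample were alternatives. Gene models, symbols and sequences are RefSeq's on TAIR10.1. The count tables hold no coordinates.

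The members, lists, comparisons and alternatives were chosen with earlier results of these data known. Named genes are the 8 members, their 2 nearest profiles and, per list, the 2 largest increases and decreases called in WT. BAK1, the remaining metacaspases and precursors were added for their role, after values were seen.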

Additional observations from a re-analysis of the deposited data

How the results depend on the processing

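Leaving out each of the 12 samples in turn left 4 members called for wounding in WT, 4 to 5 in isi1-2, 0 in unwounded genotypes, 0 to 1 in wounded genotypes and 0 in the interaction. Against a change of 1.5-fold, 2 members were called in WT in place of 4, and 4 in isi1-2 in place of 5, where PROPEP1 was lost. DESeq2 and the fit with no low-count filter each called 6 in isi1-2. Over single members, 290 of 300 values with 1 sample left out and 141 of 145 under other settings kept their direction and their side of the threshold. Uncalled differences between genotypes changed sign when 1 sample was left out. In unwounded plants they ranged from -0.031 to 0.33 for PROPEP1, -0.054 to 0.060 for PEPR1, -0.24 to 0.30 for PEPR2 and -0.18 to 0.091 for BIK1. For PEPR1 the differences ranged from -0.42 to 0.057 in wounded plants and from -0.43 to 0.053 in the interaction. Of these, the -0.42, from the fit without replicate 1 of wounded WT, was called. Without replicate 1 of wounded WT, an alternative chosen after seeing the data for the pathway lists, 7 listed genes in place of 1 were called lower in wounded isi1-2. That fit called 4.98% of all genes tested between wounded genotypes, in place of 2.39%. The cause of these changes was not tested.

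Deviations of the 18 same-numbered pairs of samples correlated between -0.03 and 0.185, with 5 over 0.1. No value of differently numbered pairs stands beside them, so they cannot settle whether the numbers pair samples. The main fit took no pairing. With the replicate number as a block no member's call changed, and PEPR1 in unwounded plants reversed to -0.0055. Over all genes the block gave 66 calls in place of 24 in unwounded plants, 703 in place of 446 in wounded plants and 75 in place of 6 in the interaction. The corresponding DESeq2 counts were 92, 715 and 153, those of the compared groups alone 81 and 142 without an interaction, and those against 1.5-fold 3, 10 and 0, with 2691 in place of 8764 for wounding in WT and 3045 in place of 9508 in isi1-2. The fit with no filter gave 38 in unwounded plants and 29 in the interaction.

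At this depth PROPEP2, PROPEP3 and FRK1, with 0 to 8 counts a library, are limited by depth.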
